A study of Mus musculus with 8 samples.

Results

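The 7 genes described here, Ifnar1, Ifnar2, Ifngr1, Ifngr2, Il10ra, Il10rb and Il22ra1, encode receptor chains for the interferons and for the IL-10 family of cytokines. They were taken from the arrays by gene name and were represented by 9 of the 39429 probes that are not controls: 3 probes for Ifnar1 and 1 for each other gene. The tissue was ovarian tumour of female C57BL/6JTgMISIIR-TAg mice, a strain in which the promoter of Amhr2, the receptor of Müllerian inhibiting substance, drives SV40 T antigen. All animals of both groups carried it, and tumours measured about 500 mm3. The 4 AZD1480 mice received 30 mg/kg of this inhibitor of the JAK1 and JAK2 kinases in 0.5% hypermellose and 0.1% Tween 80, the 4 vehicle mice received that carrier alone, and tumours were taken after 6 h. A T antigen driven by 1 promoter limits the model to cells in which that promoter is active. Ages are not given in the sources used here. There was 1 one-colour array per mouse, so replicates are separate animals.

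These chains belong to the class II cytokine receptors, single-pass membrane proteins without kinase activity of their own that signal through JAK kinases bound to their cytoplasmic tails. A type I interferon binds Ifnar2, which carries Jak1, together with Ifnar1, which carries Tyk2, and the pair signals through STAT proteins. Interferon gamma binds Ifngr1, which carries Jak1 and assembles with Ifngr2, which carries Jak2. IL-10 binds Il10ra, mainly a leukocyte chain that carries Jak1, and IL-22 binds Il22ra1, an epithelial chain. Both use Il10rb, which carries Tyk2, as a shared second chain and activate mainly Stat3. All 7 chains thus stand upstream of a JAK kinase.

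The probes are 60 bases long, and positions are given on mm9 as the array files have them. Probes of 4 of the genes lay within 170.0 kb of chromosome 16. In genome order these were Ifnar2 at chr16:91394044-91394103, Il10rb at chr16:91425744-91425803, the 3 Ifnar1 probes and Ifngr2 at chr16:91563982-91564041. Ifnar1 probe 1 was placed at chr16:91503764-91505350, probe 2 at chr16:91506635-91506693 and probe 3 at chr16:91510673-91510732. Ifngr1 was read at chr10:19329923-19329982, Il10ra at chr9:45062237-45062296 and Il22ra1 at chr4:135307221-135307280. The files give no exon or UTR annotation, and an mm9 annotation was not used here. The placement of Ifnar1 probe 1 spans 1587 bases of genome, so that probe crosses a splice junction. The Il22ra1 probe ends in a stop codon in an open reading frame. The 3 Ifnar1 probes are shown because they read different parts of the transcript and gave different values, with probes 2 and 3 limited to 30 bases from the 5′ end. The Ifnar2 probe is shown as the partner of Ifnar1, and the Il22ra1 probe because its signal lay near background, with the final stop codon in capitals.
Ifnar1 probe 1: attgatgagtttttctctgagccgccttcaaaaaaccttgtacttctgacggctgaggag
Ifnar1 probe 2: cctcactactaccttgtatctcagtctcct
Ifnar1 probe 3: gctctacctcaagagactaagagggtgaac
Ifnar2: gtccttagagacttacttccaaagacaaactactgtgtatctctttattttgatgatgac
Il22ra1: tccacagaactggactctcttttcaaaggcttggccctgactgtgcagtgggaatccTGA

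STAT proteins act on DNA motifs near the genes they regulate, so the promoters of the receptors were read for these motifs. RefSeq promoter windows of 300 bases on GRCm38.p6, 250 before to 50 after the start, were matched for 5 of the 7 genes (Ifnar1, Ifnar2, Ifngr1, Ifngr2 and Il22ra1). Searched on both strands were the GAS motif TTCNNNGAA, bound by STAT dimers, and an interferon-stimulated response element core, GAAA followed by any 2 bases and GAAA. Matches of both motifs can share bases. The response element core was in 0 of the 5 receptor windows, in 8 of 17 matched interferon target windows and in 3.44% of all 32851 windows. The GAS motif was in 2 of 5 receptor windows, in 4 of 17 target windows and in 8.30% of all windows. The 2 receptor windows with it are printed to show where it lies, with the match in capitals, Ifnar1 at chr16:91484965-91485264 and Ifnar2 at chr16:91372533-91372832, both on the plus strand. The annotated Ifnar1 gene begins at chr16:91485032, so its window is set on a later start, and the match lies downstream of that gene start. A match describes letters in a window and shows no binding.
Ifnar1 promoter: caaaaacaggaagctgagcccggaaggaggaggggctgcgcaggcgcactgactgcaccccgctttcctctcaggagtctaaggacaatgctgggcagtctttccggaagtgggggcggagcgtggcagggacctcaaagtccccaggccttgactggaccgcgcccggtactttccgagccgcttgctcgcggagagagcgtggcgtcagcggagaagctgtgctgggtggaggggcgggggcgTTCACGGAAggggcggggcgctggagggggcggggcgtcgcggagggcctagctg
Ifnar2 promoter: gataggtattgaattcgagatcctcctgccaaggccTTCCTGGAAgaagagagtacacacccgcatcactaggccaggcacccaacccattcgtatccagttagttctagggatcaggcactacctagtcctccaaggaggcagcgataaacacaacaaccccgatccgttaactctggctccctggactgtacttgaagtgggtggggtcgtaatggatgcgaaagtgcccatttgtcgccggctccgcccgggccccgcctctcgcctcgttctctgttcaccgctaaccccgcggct

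The arrays lay on 2 slides of 4, each with 2 AZD1480 and 2 vehicle tumours. Slide 2 was dimmer, with a 75th percentile of processed intensity of 1587 to 2783, whereas slide 1 had 4706 to 5795, and 66.9% to 76.4% of the spots of an array were well above background. AZD1480 replicate 1 stood apart, with a median correlation of 0.896 with the other arrays, across probes, against 0.960 to 0.974 for the rest. In that tumour the mean of 6 ciliated cell markers was -4.59, against 1.48 to 1.57 in the other AZD1480 tumours and 1.38 to 1.98 in vehicle tumours. The mean of 5 kept of 9 granulosa and luteal markers was 2.01 there, against -2.21 to -1.75 in the other AZD1480 tumours. In vehicle replicates 1 to 4 it was 0.98, -1.88, 0.42 and -2.25, so that it also varied among vehicle tumours. Foxl2, 1 of the 5 markers, stayed between 3.27 and 3.65 on all arrays. Levels here and below are log2 processed intensities minus the 75th percentile of the array. Levels of different probes are not set against each other, because brightness also depends on the probe.

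Transcripts of the type I interferon receptor showed no detectable difference between AZD1480 and vehicle tumours. Ifnar1 probe 3 read -0.20, 0.29, 0.43 and 0.21 in AZD1480 replicates 1 to 4, against 0.13, 0.17, 0.25 and 0.36 in vehicle replicates 1 to 4. The groups overlapped, and the lowest value was that of AZD1480 replicate 1. The log2 difference, AZD1480 minus vehicle, was -0.046 ± 0.18 (limma's moderated SE, n = 4 per group; 95% interval -0.45 to 0.36; adjusted p = 0.984). Slide 1 alone gave -0.11 and slide 2 alone 0.014, and leaving out AZD1480 replicate 1 gave 0.080. In a bulk tumour, fewer cells of a type and less RNA per cell cannot be told apart. Ifnar1 probe 2 read -2.05, -2.43, -1.90 and -2.24 in AZD1480 replicates 1 to 4, against -2.26, -2.19, -1.98 and -2.03 in vehicle replicates 1 to 4. The groups overlapped. The difference was -0.040 ± 0.17 (95% interval -0.43 to 0.35, limma adjusted p = 0.986), with -0.017 within slide 1 and -0.064 within slide 2.

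Ifnar1 probe 1, across the splice junction, followed the slides. It read -4.15, -4.33, -3.62 and -3.57 in AZD1480 replicates 1 to 4, against -4.51, -4.48, -3.85 and -3.68 in vehicle replicates 1 to 4. The 4 arrays of slide 2 were all above the 4 of slide 1, by 0.69 on average, whereas the groups overlapped. The treatment difference was 0.21 ± 0.28 (95% interval -0.43 to 0.85, limma adjusted p = 0.956), and it was 0.25 within slide 1 and 0.17 within slide 2. With slide as a covariate the 95% interval was -0.081 to 0.50. Over the 3 Ifnar1 probes the direction therefore differed, with each interval including 0.

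Ifnar2, the chain that binds type I interferon most tightly, read 2.23, 1.82, 2.24 and 1.93 in AZD1480 replicates 1 to 4, against 2.35, 2.30, 1.85 and 2.13 in vehicle replicates 1 to 4. The groups overlapped, and the lowest 2 values came from AZD1480 replicate 2 and vehicle replicate 3. The difference was -0.10 ± 0.18 (95% interval -0.53 to 0.32, limma adjusted p = 0.964). It was -0.30 within slide 1 and 0.094 within slide 2.

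For the interferon gamma receptor, the ligand-binding chain Ifngr1 averaged 1.61 ± 0.32 in AZD1480 tumours and 1.82 ± 0.093 in vehicle tumours (SD, n = 4 each). The values were 1.48, 1.51, 2.08 and 1.37 in AZD1480 replicates 1 to 4, against 1.73, 1.88, 1.74 and 1.91 in vehicle replicates 1 to 4. Thus 3 AZD1480 tumours lay below every vehicle tumour and replicate 3 above every one. The difference was -0.21 ± 0.19 (95% interval -0.65 to 0.23, limma adjusted p = 0.953), with -0.31 within slide 1 and -0.11 within slide 2.

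The signal-transducing partner Ifngr2 read 1.55, 0.77, 0.95 and 0.68 in AZD1480 replicates 1 to 4, against 1.15, 0.96, 0.82 and 0.90 in vehicle replicates 1 to 4. AZD1480 replicate 1 was the highest of the 8 arrays, while replicates 2 and 4 were the lowest. The difference was 0.032 ± 0.22 (95% interval -0.48 to 0.54, limma adjusted p = 0.994). It was 0.11 within slide 1 and -0.044 within slide 2. Without AZD1480 replicate 1 it was -0.16, so that the sign rested on that tumour.

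Among the chains of the IL-10 family, the leukocyte chain Il10ra read -1.74, -2.69, -2.60 and -2.70 in AZD1480 replicates 1 to 4, against -2.49, -3.08, -2.43 and -2.57 in vehicle replicates 1 to 4. The highest value was AZD1480 replicate 1, and the other 3 AZD1480 tumours lay within the vehicle range. The difference was 0.21 ± 0.27 (95% interval -0.41 to 0.83, limma adjusted p = 0.956). It was 0.57 within slide 1, which holds that tumour, -0.15 within slide 2 and -0.021 without AZD1480 replicate 1.

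In the tumour with the highest Il10ra value, the means of pan-leukocyte, macrophage, T, NK, B and dendritic cell markers were lowest. Only the mean of neutrophil markers was highest there. The mean of 5 of 5 pan-leukocyte markers, among them Ptprc (CD45), was -3.18, -1.56, -1.15 and -1.99 in AZD1480 replicates 1 to 4, against -1.31, -1.62, -1.36 and -0.95 in vehicle replicates 1 to 4. The tumour highest for Il10ra was thus the lowest for these markers, of which 5 had negative differences and 0 an unadjusted p under 0.05. The mean of 14 of 15 macrophage and monocyte markers was likewise lowest there, at -2.01, against -0.70 to -0.21 in the other AZD1480 tumours and -0.43 to 0.008 in vehicle tumours. Of these 14, 12 had negative differences, 3 at an unadjusted p under 0.05. Over all 22710 genes, 42.4% had a negative difference and 1.67% were lower at an unadjusted p under 0.05. The difference of list means was -0.64 for macrophage and monocyte markers and -0.66 for pan-leukocyte markers. Without AZD1480 replicate 1 it was -0.26 for each. The macrophage marker Cd163 was well above background on 0 of 8 arrays. T cell (7 of 9 kept), NK cell (3 of 5), B cell (4 of 5) and dendritic cell markers (4 of 5) also had their lowest means in AZD1480 replicate 1. These were -4.72, -5.67, -6.33 and -1.91, and the next lowest arrays were at -3.44, -5.45, -5.98 and -1.83. Neutrophil markers (4 of 6 kept) had their highest mean in the same tumour, -0.36. Means were -2.87 to -1.83 in the other AZD1480 tumours and -2.70 to -1.06 in vehicle tumours. Of the 4 markers, S100a8 (-0.88) and S100a9 (0.92) were highest in AZD1480 replicate 1. Csf3r and Cxcr2 were highest in AZD1480 replicate 4, at 6.71 and -6.26. The part of these cell types in the Il10ra value was not tested.

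Il10rb, the chain shared by IL-10 and IL-22 and by the lambda interferons, read 0.70, -0.073, 0.18 and -0.35 in AZD1480 replicates 1 to 4, against 0.82, 0.22, 0.30 and 0.25 in vehicle replicates 1 to 4. AZD1480 replicates 2, 3 and 4 lay below every vehicle tumour, and replicate 1 lay below vehicle replicate 1 only. The difference was -0.29 ± 0.26 (95% interval -0.89 to 0.32, limma adjusted p = 0.953). It was -0.21 within slide 1 and -0.36 within slide 2. It was -0.48 without AZD1480 replicate 1, -0.13 without AZD1480 replicate 4 and -0.14 without vehicle replicate 1.

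Il22ra1, the epithelial IL-22 chain, was near background. Its probe was well above background on 3 of 4 AZD1480 arrays and 3 of 4 vehicle arrays, the exceptions being AZD1480 replicate 2 and vehicle replicate 1. It read -6.72, -6.86, -6.02 and -6.05 in AZD1480 replicates 1 to 4, against -6.75, -6.26, -5.34 and -6.20 in vehicle replicates 1 to 4. All 4 arrays of slide 2 lay above those of slide 1, and the treatment difference was -0.29 within slide 1 and -0.27 within slide 2. Over all arrays it was -0.28 ± 0.34 (95% interval -1.07 to 0.51, limma adjusted p = 0.953). With normexp background correction it was 0.072, so that the sign of the difference was not resolved at this signal. A 2-fold decrease lay outside the 95% interval with slide as a covariate (-0.81 to 0.25) but inside it with quantile normalization (-1.27 to 0.56).

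**Figure D1:**
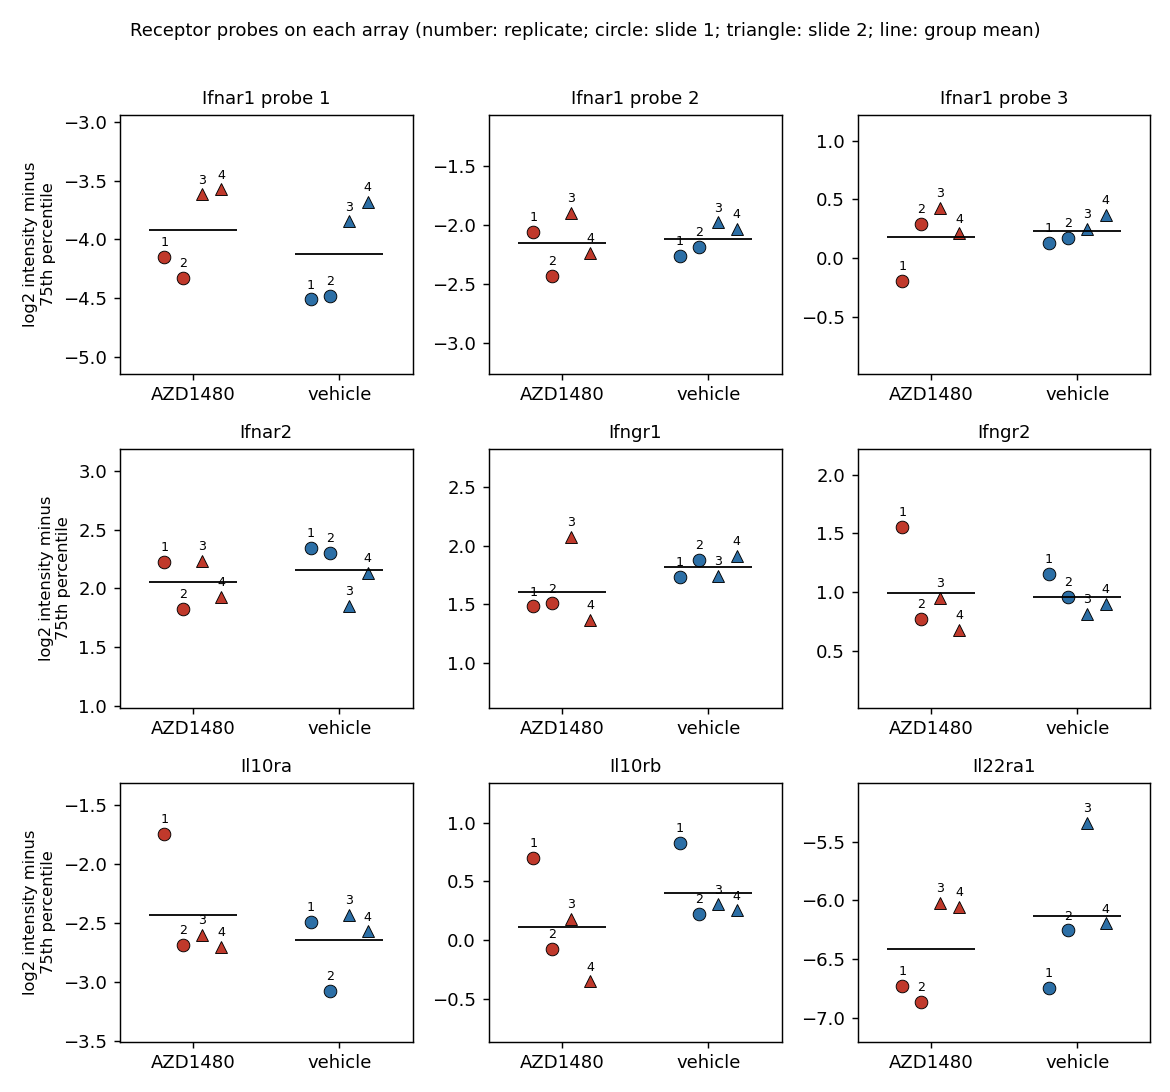
Level of each of the 9 receptor probes on each array, as log2 processed intensity minus the 75th percentile of the array, with AZD1480 tumours left and vehicle tumours right. Numbers are replicates, circles slide 1, triangles slide 2 and lines group means; every panel spans the same range of log2 units. In all 9 panels the groups overlap, and Il10ra shows AZD1480 replicate 1 at -1.74 above all other arrays.

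In all, 6 of the 9 probes had a negative and 3 a positive difference, where 41.9% and 58.1% of all 28329 tested probes did. The differences ran from -0.29 to 0.21, with a median of -0.046 against 0.058 over all tested probes. None passed limma's test (0 of 9, against 0% of all tested probes), and 0 of 9 had an unadjusted p under 0.05, against 3.64%. Differences of 1 or more in size were found for 0 of 9, against 6.61%. The groups overlapped for all 9, against 2.61% of tested probes without overlap. For 8 of the 9 probes, all but Il22ra1, the 95% interval of this fit lay within -1 to 1, which leaves out a 2-fold change in either direction. Such an interval was found for 56% of tested probes. Some alternatives gave intervals that passed these bounds. Examples are -1.09 for Il10rb with median scaling, 1.04 for Ifnar1 probe 1 without vehicle replicate 4 and 1.01 for Il10ra without AZD1480 replicate 2. For 8 of 9 the SD within groups was below that of the median tested probe, 0.41, and Il22ra1 was above it at 0.52. That no probe passed does not show equal levels, and precision is limited by having 4 arrays in each group.

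**Figure D2:**
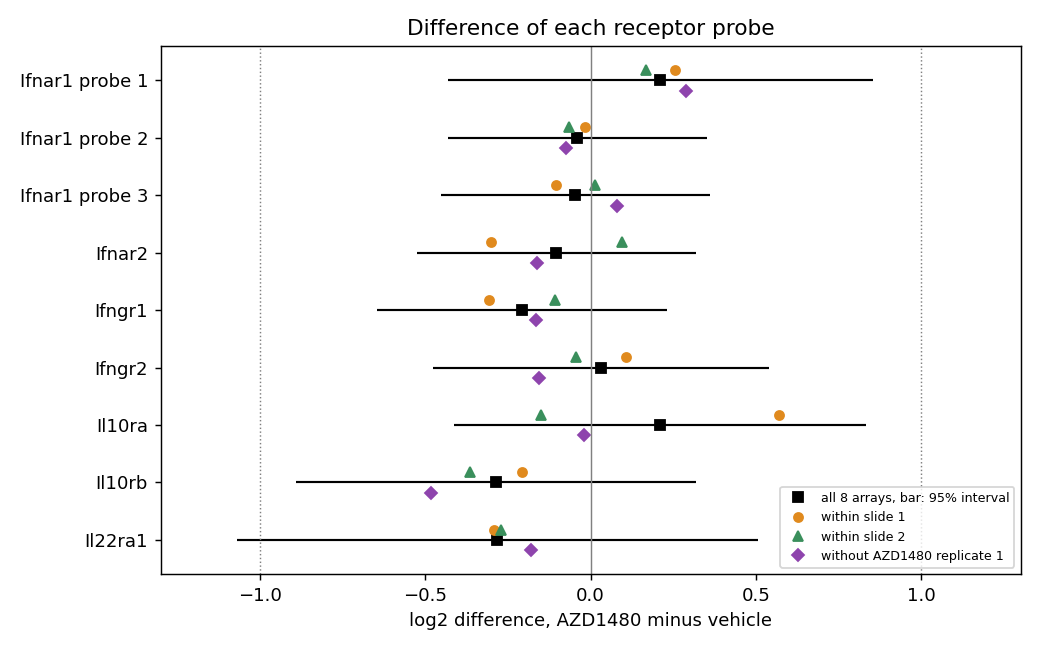
Log2 difference, AZD1480 minus vehicle, of each receptor probe over all 8 arrays (squares, with 95% intervals), within slide 1 (circles), within slide 2 (triangles) and without AZD1480 replicate 1 (diamonds). Every interval includes 0, and all but that of Il22ra1, from -1.07 to 0.51, lie between the dotted lines at -1 and 1.

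Of the genes around these receptors, none passed the adjusted test. Each listed gene was read by the brightest kept probe, beside a median of 0.053 over 22710 genes, of which 42.4% had a negative difference, 1.67% were lower and 1.92% higher at an unadjusted p under 0.05, and 0% passed limma's adjusted test. Irf9, the DNA-binding partner of Stat2, was at -1.13 ± 0.27 (limma adjusted p = 0.953) and did not overlap between groups. Its difference was -0.92 without AZD1480 replicate 1. Stat3, the main transducer of the IL-10 family, was at -0.90 ± 0.26 and Stat2 at -0.53 ± 0.21. These 3 had an unadjusted p under 0.05, and 0 passed limma's adjusted test. The receptor-bound kinases themselves were at 0.055 ± 0.32 (Jak1), -0.58 ± 0.37 (Jak2) and 0.073 ± 0.24 (Tyk2). Without AZD1480 replicate 1 they were at -0.23 (Jak1), -0.22 (Jak2) and 0.24 (Tyk2), so that the sign for Jak1 turned.

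Among 7 brakes on receptor signalling, Usp18, which binds Ifnar2 and blocks its signalling, was at -2.43 ± 0.74. Socs3, a feedback inhibitor of JAK kinases, was at -0.84 ± 0.26. These were the 2 brakes at an unadjusted p under 0.05, and 0 passed limma's adjusted test. The groups did not overlap for either, nor for the phosphatase Ptpn6 (-0.89 ± 0.55), where 1.29% of genes were lower and 1.22% higher without overlap. For Ptpn6 the groups nearly touched, with AZD1480 replicate 3 at -0.627 and vehicle replicate 1 at -0.625. Its difference was -0.28 without AZD1480 replicate 1, the lowest array at -3.24. The phosphatases Ptpn1 and Ptpn2, the inhibitor Socs1 and the STAT inhibitor Pias1 lay between 0.058 and 0.26. The median of the list was 0.058, and its sign turned within slide 2 (-0.23), with array weights (-0.11) and without vehicle replicate 1 (-0.088).

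All 20 listed interferon targets were at negative differences, with a median of -1.79, 12 of them at an unadjusted p under 0.05 and 0 by limma's adjusted test. The smallest p belonged to Mx1 (-4.37 ± 0.56 in the fit, with 1 of 4 AZD1480 arrays above background) and Ifi44 (-3.51 ± 0.59). Mean target levels were -2.92, -1.28, -0.48 and -0.77 in AZD1480 replicates 1 to 4, against 0.50, 0.36, 0.21 and 0.72 in vehicle replicates 1 to 4. On the same arrays Ifnar2 spanned 1.82 to 2.24 in AZD1480 tumours and 1.85 to 2.35 in vehicle tumours. Leaving out AZD1480 replicate 1 gave a target median of -1.10, and the slides alone gave -2.47 (slide 1) and -0.96 (slide 2). Some other marker lists were also at negative differences throughout. Their medians were -0.69 for 10 of 10 epithelial, -1.44 for 6 of 6 ciliated cell and -2.23 for 4 kept of 6 adipocyte markers. The difference of list means was -0.76 (epithelial), -1.60 (ciliated cell) and -2.46 (adipocyte). Without AZD1480 replicate 1 it was -0.59, -0.069 and -2.37. The adipocyte markers Cfd and Plin1 were each well above background on 1 AZD1480 array and 3 vehicle arrays. Adipocyte means were -6.94 to -5.12 in AZD1480 tumours and -6.37 to 0.10 in vehicle tumours. The part of these cell types in the target values was not tested.

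Genes known to respond to IL-10 in macrophages were mixed, with 4 of 8 kept genes negative and a median of 0.028, or -0.20 without AZD1480 replicate 1. Fcgr1, an Fc receptor that interferon gamma also induces, was at -1.39 ± 0.49 (-0.92 without AZD1480 replicate 1) and Socs3 as above. These were the 2 at an unadjusted p under 0.05, and 0 passed limma's adjusted test. Sbno2, Nfil3, Etv3, Bcl3, Il4ra and Il1rn lay between -0.16 and 0.38. Of genes that IL-22 induces in epithelia, 3 of 6 were kept. The iron-binding protein Lcn2 was at -2.16 ± 0.58, without overlap between groups, and the calprotectin chains S100a8 and S100a9, which neutrophils also express, were at 0.12 ± 0.95 and 0.062 ± 1.00. The list median was 0.062, and -0.79 without AZD1480 replicate 1. Lcn2 alone had an unadjusted p under 0.05, and 0 passed limma's adjusted test.

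Of 23 listed ligand genes 20 had a probe and 13 were kept, 11 of them well above background on all 8 arrays. Ifnb1 and Ifng were well above background on 1 array each and Il10 on 0. All 13 kept ligands had positive differences, from 0.040 (Ifna5) to 0.83 ± 0.27 (Ifna14), and Ifna14 was the 1 with an unadjusted p under 0.05 (0 by limma's adjusted test). Ifna2 was at 0.34 ± 0.26 and Il22 at 0.10 ± 0.28. The highest mean over the 13 was in AZD1480 replicate 4, -4.38, the array with the lowest 75th percentile, against -5.69 to -5.09 in the other AZD1480 tumours and -5.82 to -5.06 in vehicle tumours. Without that array the ligand median was 0.13, against 0.34 with all arrays. It was 0.032 within slide 1, where Ifna1, Ifna7, Ifna12, Ifna13, Ifnab and Il22 had negative differences, and 0.60 within slide 2. Interferon alpha genes are near copies of each other, so the source of a single probe's signal is uncertain.

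Among the remaining class II receptors, AZD1480 replicate 1 was the lowest array for 3 of 4 kept genes. Ifnlr1, the lambda interferon chain that pairs with Il10rb, read -5.01, -0.59, -0.71 and -0.50 in AZD1480 replicates 1 to 4, against -0.69, -0.27, -0.61 and -0.67 in vehicle replicates 1 to 4. Il20ra and Il20rb, which form the IL-20 receptor and are known from epithelia, were likewise lowest in AZD1480 replicate 1, at -4.28 and -3.15. Their differences were -1.14 ± 0.97 (Ifnlr1), -1.09 ± 0.61 (Il20ra) and -1.17 ± 1.29 (Il20rb). Without that tumour they were -0.039, -0.50 and 0.27. The median of the 4 kept genes was -1.12, and -0.027 without that tumour. F3, the coagulation receptor tissue factor, was at -0.064 ± 0.34, and the decoy receptor Il22ra2 was not kept. Of the 4 kept genes 0 had an unadjusted p under 0.05 and 0 passed limma's adjusted test. The ciliated cell markers that were low in the same tumour are given above, and the 10 epithelial markers averaged -0.31 there, against -0.36 to 0.80 in the other AZD1480 tumours and -0.14 to 2.05 in vehicle tumours. Their part in these values was not tested.

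Of 8 receptors of the gp130 family, a list that holds gp130 itself (Il6st) and the related G-CSF receptor Csf3r, 5 were negative with a median of -0.059 (0.23 without AZD1480 replicate 1), and Osmr, the oncostatin M receptor, was at -1.61 ± 0.53 without overlap between groups. Lifr, the leukemia inhibitory factor receptor, was at 0.31 ± 0.30. Without AZD1480 replicate 1 these differences were -1.05 (Osmr) and 0.14 (Lifr). Osmr was the 1 gp130 family receptor at an unadjusted p under 0.05. Of 10 hormone and growth factor receptors that signal through Jak2, 5 were negative with a median of -0.001, from -0.43 (Csf2rb2) to 0.81 ± 0.46 (Epor, the erythropoietin receptor). Il3ra, the IL-3 receptor chain, was at -0.34 ± 0.33. Without AZD1480 replicate 1 these differences were 0.061 (Csf2rb2), 0.37 (Epor) and -0.54 (Il3ra). In both lists 0 passed limma's adjusted test. Whether the receptors described here differ from these lists was not tested.

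**Figure D3:**
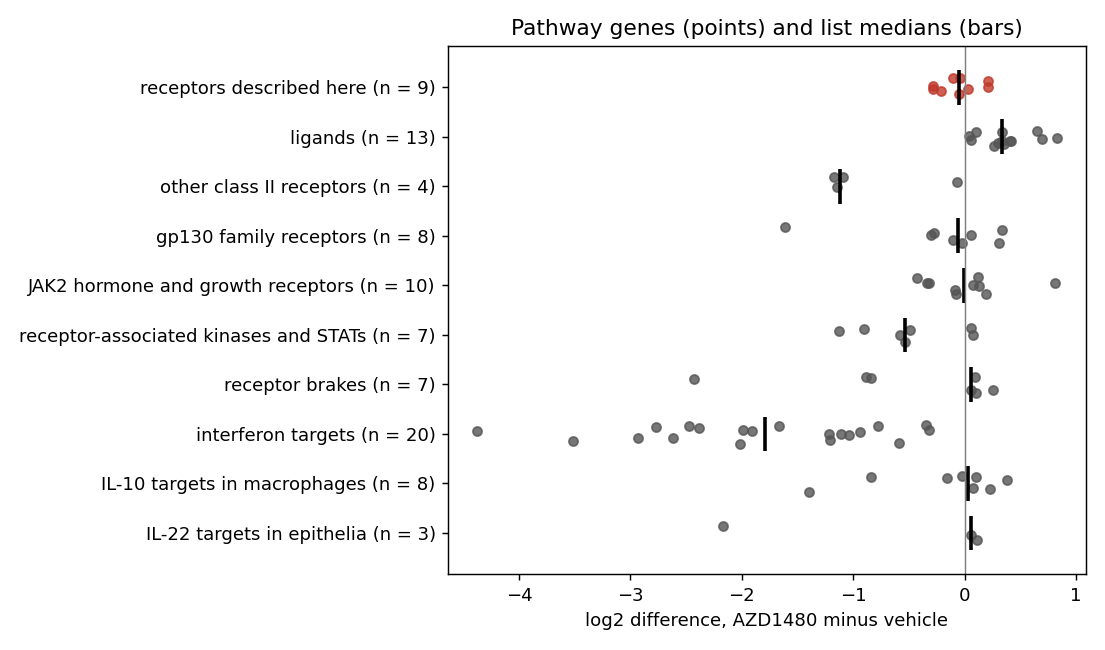
Log2 difference, AZD1480 minus vehicle, of the 9 receptor probes (top) and of the kept genes of each pathway list (1 point per gene, vertical bars for list medians). The receptor probes lie between -0.29 and 0.21, while the 20 interferon targets lie between -4.37 and -0.32.

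The tumour to tumour pattern of each receptor was also set beside that of 15460 other named genes over the 8 arrays. Ifnar1 was read by probe 3 alone, its brightest. The 3 genes with the highest Pearson r were Glipr2, Abhd16a and Btbd11 for that probe. They were Zkscan14, Tmem204 and Mat2b for Ifnar2, and Pon2, Birc3 and Oas3 for Ifngr1. They were Rgn, Mycn and Dusp10 for Ifngr2, Septin11, Mta2 and Gfpt2 for Il10ra, Zfp507, Zfp367 and Peli1 for Il10rb, and Nav1, Pcdhb10 and Pdia4 for Il22ra1. The coefficients ran from 0.928 (Pdia4) to 0.995 (Septin11) and describe 8 arrays shared by all genes, picked as the top 3 of 15460 values per receptor. Without the 2 arrays farthest from the median of Il10ra, among them AZD1480 replicate 1, r with Mta2 was 0.679.

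**Figure D4:**
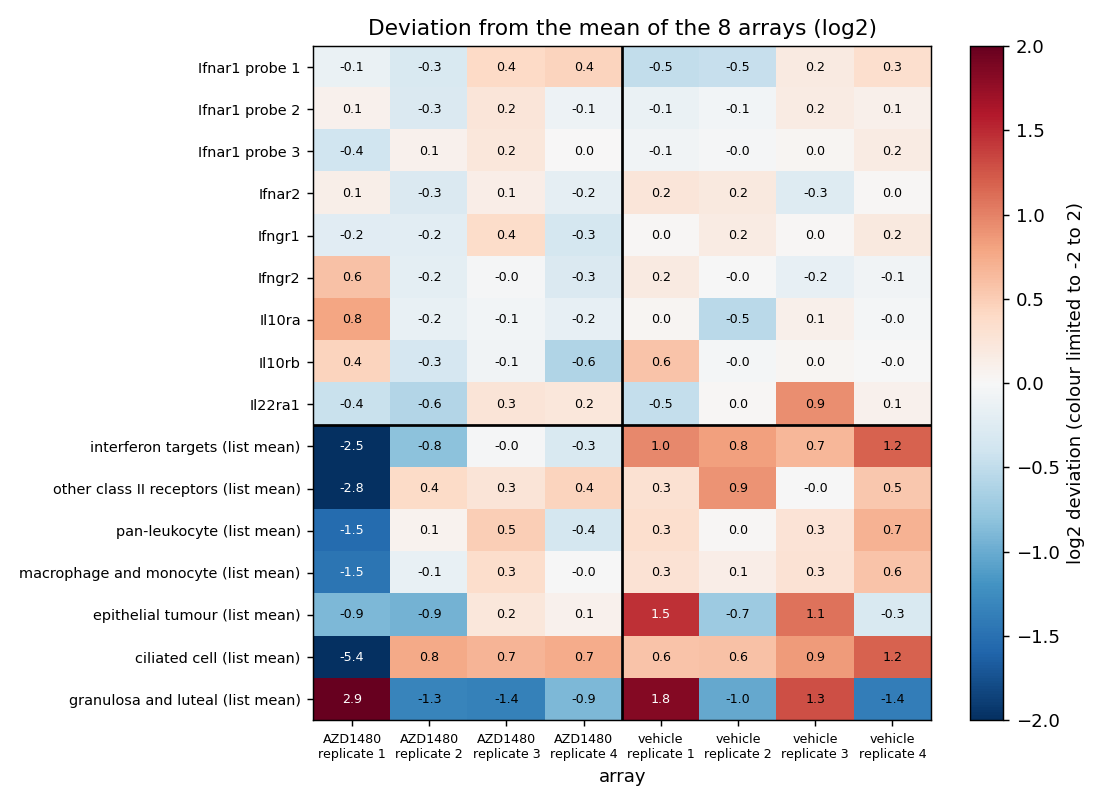
Deviation of each receptor probe (upper 9 rows) and of the mean of gene lists (lower 7 rows) from the average of the 8 arrays, in log2 units, AZD1480 arrays left and vehicle arrays right. Colour is limited to -2 to 2 and the numbers give the value; in AZD1480 replicate 1 the ciliated cell mean is far below and the granulosa and luteal mean far above the average.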

How the data were processed

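Agilent one-colour arrays carried Cy3-labelled RNA of 1 tumour each. Signals came from Agilent Feature Extraction 9.5.3 (tool and version per the submitters' processing notes). The deposited processed intensity had local trends and background removed within each array, low values set to a surrogate and no scaling between arrays, per the file headers. The authors also deposited a log2 value table with a median of 8.36 in every column. Its columns hold the same sorted values, as quantile normalization gives, its offset is unknown, and it served as an alternative only.

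Log2 processed intensities were scaled by subtracting the 75th percentile of the spots that are not controls. Flagged outlier spots were left out, spots of a probe averaged, and probes kept if well above background on at least 4 of 8 arrays, which left 28329. The test was that of limma 3.58.1 under R 4.3.3, with lmFit and eBayes, two-sided and with treatment as the only term, with Benjamini-Hochberg adjustment over all kept probes and a threshold of 0.05. The fit was tested only on simulated data with independent normal noise, which lacks the slide pattern and the outlying tumour of these arrays. Genes of lists were taken by their brightest kept probe, with symbols updated through RefSeq accessions. The text describes every receptor probe and names list members, at least the 2 of smallest p per list, and the 3 genes most alike per receptor. Receptors and lists were chosen with earlier results of these data known.

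Alternatives were normexp background correction (offset 50), quantile and median scaling, other filters on dim probes, flagged spots kept, the authors' table, the slide as a covariate and each slide alone, a replicate block, array weights and each array left out. 1 gene of the list of receptor-associated kinases and STATs is not reported here.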

Additional observations from a re-analysis of the deposited data

Results flagged for a closer look

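Each of the 9 receptor probes was searched for single arrays far from the rest of their group, in 18 groups of 4 values, of which chance flags about 1 in 20. Il10ra in AZD1480 replicate 1 was at -1.74, while the other 3 AZD1480 tumours were at -2.70 to -2.60, a gap of 0.892 of the range of the group. Il10rb in vehicle replicate 1 was at 0.82, while the other 3 vehicle tumours were at 0.22 to 0.30, a gap of 0.861 of the range. Both arrays are on slide 1.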

How the results depend on the processing

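All 20 alternatives called 0 probes by limma, with 622 (without vehicle replicate 1) to 2434 (without AZD1480 replicate 3) at an unadjusted p under 0.05, against 1030 as reported. Of 179 receptor values under alternatives, 165 kept their sign, 0 passed the threshold and 0 had an unadjusted p under 0.05. No sign could turn with slide as a covariate, the replicate block, other filters on dim probes or flagged spots kept. These left each receptor difference they gave at its reported value. Signs turned with array weights for Ifnar1 probe 3 (0.016), Ifngr2 (-0.060) and Il10ra (-0.020), within slide 2 for Ifnar1 probe 3 (0.014), Ifnar2 (0.094), Ifngr2 (-0.044) and Il10ra (-0.15), and with normexp for Il22ra1 (0.072). Leaving out each replicate in turn gave 0.084 to 0.36 (Ifnar1 probe 1), -0.13 to 0.051 (probe 2), -0.13 to 0.080 (probe 3), -0.21 to -0.026 (Ifnar2), -0.36 to -0.13 (Ifngr1), -0.16 to 0.14 (Ifngr2), -0.021 to 0.30 (Il10ra), -0.48 to -0.13 (Il10rb) and -0.49 to -0.017 (Il22ra1). List medians moved within slide 1 for IL-22 targets (1.70) and gp130 receptors (-0.52), and within slide 2 for other class II receptors (0.061), interferon targets (-0.96), IL-22 targets (-1.47) and gp130 receptors (0.39). With array weights the median was -0.18 for other class II receptors and -0.11 for brakes. Within slide 1 it was 0.032 for ligands. Leaving out 1 array gave -1.43 to -0.027 for other class II receptors and medians of -0.79 to 0.60 for IL-22 targets. The cause was not tested. With the filter on all 8 arrays Il22ra1 was not kept. Signal near background limits Il22ra1. Same-number tumours correlated at 0.349, 0.371, 0.144 and -0.060 in their deviations from group means, so not every pair was positive, AZD1480 replicate 3 correlated best with vehicle replicate 4 (0.561), and the numbers were treated as not pairing. A replicate block gave 0 called probes and 1272 at an unadjusted p under 0.05. The receptor differences stayed as they were by design, as each block holds both groups (Il10rb -0.29, limma adjusted p = 0.805).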
